A study of Mus musculus with 32 samples.

Results

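Steady-state levels of 43 genes that copy the genome or prepare the cell to do so were examined in whole mouse lung. They were chosen by name, as the array features whose gene name was one of the 43, and make up 43 of the 22594 genes with a RefSeq symbol and 53 of the 55681 mouse features on the array. Lungs of 32 C57Bl/6J mouse pups of both sexes were measured, 4 pups in each of 8 groups. The pups breathed either 21% O2 (normoxia) or 85% O2 (hyperoxia, a model of the arrested lung growth of bronchopulmonary dysplasia) from birth, received either a scrambled antimiR or antimiR-34a, a locked nucleic acid that binds the microRNA miR-34a, and were killed at postnatal day (P)5 or P14. Thus, all 8 groups carried an injected oligonucleotide, and lungs without one were not analysed here. The study asked how hyperoxia disturbs alveolarization and what blocking miR-34a changes. The labels name pentobarbital as the killing agent at P5 and isoflurane at P14, whereas the study's methods name pentobarbital for both ages. If the labels hold, the agent and age cannot be told apart. Nursing dams were rotated every day. The lung was taken as a whole, so fewer dividing cells and less RNA per dividing cell cannot be told apart.

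Before a cell divides, the MCM helicase is loaded at replication origins by Cdc6 and Cdt1, is started by Mcm10 and the GINS complex, and is followed by the primase and the DNA polymerases. The sliding clamp Pcna, its loader RFC, the flap nuclease Fen1 and the ligase Lig1 finish the lagging strand, while ribonucleotide reductase, thymidylate synthase and thymidine kinase supply the building blocks. Most of these genes are transcribed at the G1/S boundary under the E2F factors, and cyclin E drives entry into S phase. In the newborn mouse lung, epithelial, endothelial and mesenchymal cells all divide during the first days of air breathing, and this division wanes as septation ends.

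The 43 genes were grouped by role: 13 for origin licensing and the helicase, 8 polymerase and primase subunits, 6 for the clamp, its loader and Okazaki fragment joining, 5 for nucleotide supply, 4 for the copying of chromatin and DNA methylation, 4 G1/S cyclins and E2F factors, and 3 for replication-coupled repair. Levels were expressed on a log2 scale, with the 75th percentile of all signals on an array set to 0, and levels of different genes were not compared. Of the 43, 41 were well above background on all 32 arrays. The feature for Ccne2 was not well above background on any array and was not tested, and that for Brca1 was above it on 8 arrays. Brca1 entered the tests at P5 only through the 21% O2 scrambled group and was not tested within P14. Hence 42 members were tested at P5, 41 at P14 and 42 across ages. The files place the features for Cdca7 and Mcm7 on chromosome 16 (mm9) and those for Pcna and Rrm2 on chromosome 19, whereas RefSeq places these genes on chromosomes 2, 5, 2 and 12. Signal from a near-identical copy was not separable for them. A feature of Brca1, Pold1, Pole2 and Rfc3 each, and the second feature of Uhrf1, had no position in the files.

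The 32 arrays lay on 4 slides, and each slide held 1 age and 1 oxygen level, with scrambled antimiR in the first row of arrays and antimiR-34a in the second. Oxygen and age therefore cannot be told apart from the slide, nor antimiR-34a from the row. The 75th percentile of log2 signal ranged from 9.01 to 9.99 across arrays. No label says how the 4 pups of a group were spread over litters, so the p-values measure the spread between these pups. Adipocyte markers stood high in every P14 21% O2 lung, at 2.26 to 5.18 with scrambled antimiR and 2.34 to 5.95 with antimiR-34a. Markers of other tissue stood high in single lungs. Mean skeletal muscle marker level was 4.66 in replicate 4 of the P5 21% O2 scrambled group, against -0.34 in the lowest of that group. Thymus markers stood at 2.42 in replicate 1 of the P14 21% O2 antimiR-34a group, against 0.97 in the lowest of it. Replicate 4 of the P14 85% O2 antimiR-34a group had an adipocyte level of 1.34 and a heart muscle level of 1.02, the highest of its group, and a type I pneumocyte level of -0.23, the lowest, where the group reached down to -2.11 and -1.99 and up to 0.40.

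Sequences around the annotated starts of the members show a feature that the choice by name did not use. Promoter windows of 300 bases (250 before to 50 after the RefSeq start, GRCm38.p6) were found for 35 members, in 42 windows, and searched on both strands for the E2F words TTTCCCGC, TTTGGCGC, TTTCGCGC and TTTGCCGC. At least 1 of these words was in 15 of the 42 windows (35.7%), compared with 2.26% of all 32851 promoter windows. The word CCAAT, bound by NF-Y, was in 52.4% of the member windows and 37.4% of all, and TTTGAA, the core of the element that late cell cycle genes share, in 11.9% and 17.9%. By role, a word for E2F was found for 7 of the 9 licensing and helicase members with a window, 3 of 6 polymerase and primase members and 0 of 5 nucleotide supply members. Absence of a word says only that these letters are not in this window. For Cdt1, E2f2, Lig1, Mcm3, Pold1 and Pole2, the words found lie after the annotated start. Shown here are 28-base stretches of 6 members picked from those with a word, read on the strand of the gene, with the E2F word or overlapping words in capitals:
Mcm5: ccaagaacTTTCGCGCCAAAacgtccag
Mcm6: cgtatgctTTTGGCGCGAAAagtgcgtg
Cdc6: ccggtggagaGCGGGAAAtcgcctgggg
Pola1: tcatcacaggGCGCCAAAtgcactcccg
Uhrf1: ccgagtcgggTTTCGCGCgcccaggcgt
Cdca7: gcgtcccggcGCGGGAAAgccggtggcc
These stretches lie at chr8:75109348-75109375 (plus strand), chr1:128359796-128359823 (minus), chr11:98908003-98908030 (plus), chrX:93632276-93632303 (minus), chr17:56304118-56304145 (plus) and chr2:72476138-72476165 (plus) of GRCm38.p6, all before the annotated start of their gene. In Mcm5 and Mcm6, the words TTTCGCGC and TTTGGCGC overlap on opposite strands.

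At P5, the peak of septation, the replication genes were lower in 85% O2. In scrambled antimiR mice, 35 of the 42 tested members fell and 0 rose in comparison with 21% O2, with a median log2 fold change of -0.63. Over all 16971 genes tested, 21.1% were lower and the median was 0.024. With antimiR-34a, 36 of the 42 fell and 0 rose, the median was -0.57, and 22.2% of all genes were lower. The 36 include Brca1, which was above background in 2 of 4 and 0 of 4 lungs of those groups. Over the 41 members above background on all arrays, 35 fell under either antimiR. Tests were limma's moderated test with Benjamini-Hochberg adjustment over all probes at 0.05. The members' mean level per mouse, relative to each gene's mean over the 32 mice, was 0.75, 0.85, 0.86 and 0.69 in the 21% O2 scrambled mice and 0.21, 0.17, 0.26 and 0.20 in the 85% O2 scrambled mice. It was 0.71, 0.65, 0.67 and 0.70 and 0.12, 0.34, -0.081 and 0.12 in the antimiR-34a mice at the same oxygen levels. All 8 mice in 85% O2 lay below all 8 in 21% O2. The 4 pups of the 85% O2 antimiR-34a group spread widest, with an SD of 0.17 against 0.035 in their scrambled counterparts.

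**Figure D1:**
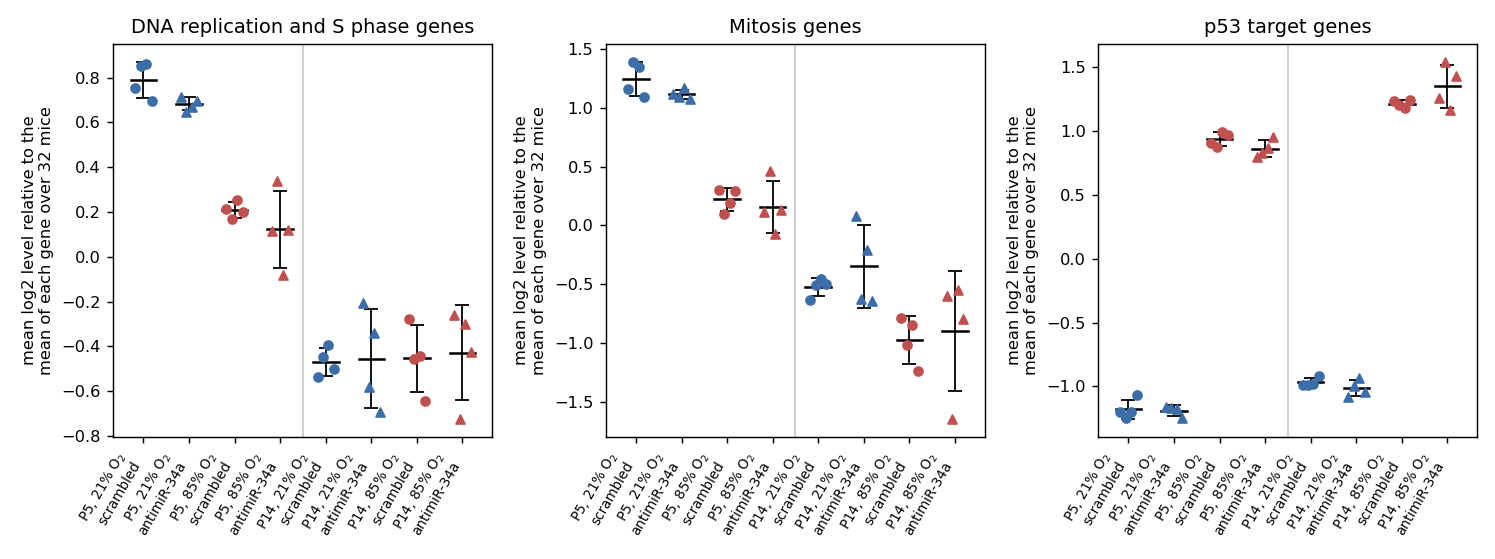
Mean log2 level of the 43 DNA replication and S-phase genes, of mitosis genes and of p53 target genes in each mouse (points, 4 per group), relative to each gene's mean over 32 mice. Black lines and bars are the mean ± SD, blue is 21% O2 and red 85% O2. Replication genes averaged 0.79 at P5 in 21% O2 and 0.21 in 85% O2 with scrambled antimiR, whereas at P14 the same groups averaged -0.47 and -0.45.

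Among the origin licensing and helicase genes, 11 of 13 fell at P5 with scrambled antimiR and 12 of 13 with antimiR-34a, with medians of -0.66 and -0.52. Levels are given for the 4 mice of a group in the order of their labels, and changes as log2 fold change of 85% over 21% O2 ± SE. Mcm2, a subunit of the replicative helicase, measured 1.72, 1.91, 2.04 and 1.86 in 21% O2 with scrambled antimiR and 1.84, 1.84, 1.83 and 1.77 with antimiR-34a. In 85% O2, Mcm2 measured 1.16, 1.29, 1.24 and 1.19 with scrambled antimiR and 0.98, 1.22, 1.10 and 1.22 with antimiR-34a. Mcm2 changed by -0.66 ± 0.072 (scrambled antimiR) and -0.69 ± 0.072 (antimiR-34a), and the oxygen groups did not overlap under either antimiR. Mcm5, another subunit of it, had levels of 2.35, 2.40, 2.51 and 2.41 in 21% O2 with scrambled antimiR and 2.22, 2.09, 2.09 and 2.16 with antimiR-34a. In 85% O2, Mcm5 had levels of 1.63, 1.89, 1.84 and 1.86 with scrambled antimiR and 1.70, 1.97, 1.34 and 1.79 with antimiR-34a. Mcm5 changed by -0.61 ± 0.11 (scrambled antimiR) and -0.44 ± 0.11 (antimiR-34a), and the oxygen groups did not overlap under either antimiR. Mcm6, a subunit next to Mcm2 in the ring, was at 4.99, 4.98, 5.04 and 4.77 in 21% O2 with scrambled antimiR and 4.86, 4.72, 4.89 and 4.84 with antimiR-34a. In 85% O2, Mcm6 was at 4.48, 4.54, 4.59 and 4.51 with scrambled antimiR and 4.41, 4.68, 4.10 and 4.42 with antimiR-34a. Mcm6 changed by -0.41 ± 0.098 (scrambled antimiR) and -0.43 ± 0.098 (antimiR-34a), and the oxygen groups did not overlap under either antimiR. Mcm10, needed to start the helicase, measured 1.44, 1.44, 1.44 and 1.21 in 21% O2 with scrambled antimiR and 1.23, 1.18, 1.30 and 1.23 with antimiR-34a. In 85% O2, Mcm10 measured 0.84, 0.65, 0.68 and 0.62 with scrambled antimiR and 0.48, 0.95, 0.41 and 0.53 with antimiR-34a. Mcm10 changed by -0.68 ± 0.10 (scrambled antimiR) and -0.64 ± 0.10 (antimiR-34a), and the oxygen groups did not overlap under either antimiR.

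Cdc6 showed the largest change of any member at P5 in scrambled antimiR mice. Cdc6, the loader of the helicase, had levels of -1.27, -1.15, -0.92 and -1.13 in 21% O2 with scrambled antimiR and -1.23, -1.45, -1.26 and -1.32 with antimiR-34a. In 85% O2, Cdc6 had levels of -2.24, -2.20, -2.29 and -2.53 with scrambled antimiR and -2.50, -2.26, -2.61 and -2.33 with antimiR-34a. Cdc6 changed by -1.20 ± 0.098 (scrambled antimiR) and -1.11 ± 0.098 (antimiR-34a), and the oxygen groups did not overlap under either antimiR. Its adjusted p was 5.77e-07 and 9.92e-07, and a second feature for Cdc6 gave -0.955 and -0.70. Cdt1, which loads the helicase together with Cdc6, was at 2.76, 2.93, 2.69 and 2.55 in 21% O2 with scrambled antimiR and 2.70, 2.47, 2.74 and 2.71 with antimiR-34a. In 85% O2, Cdt1 was at 2.29, 2.58, 2.57 and 2.32 with scrambled antimiR and 2.21, 2.51, 1.86 and 2.23 with antimiR-34a. Cdt1 changed by -0.46 ± 0.13 with antimiR-34a, while its difference of -0.29 ± 0.13 with scrambled antimiR did not pass the test, and the oxygen groups overlapped under both antimiRs. Gmnn, geminin, the inhibitor of Cdt1, measured 0.16, 0.18, 0.076 and 0.015 in 21% O2 with scrambled antimiR and 0.21, 0.029, 0.17 and 0.19 with antimiR-34a. In 85% O2, Gmnn measured -0.62, -0.79, -0.59 and -0.76 with scrambled antimiR and -0.78, -0.51, -1.09 and -0.84 with antimiR-34a. Gmnn changed by -0.80 ± 0.098 (scrambled antimiR) and -0.96 ± 0.098 (antimiR-34a), and the oxygen groups did not overlap under either antimiR. Gins1, a subunit of the GINS complex of the active helicase, had levels of 1.03, 1.11, 1.06 and 1.0 in 21% O2 with scrambled antimiR and 0.93, 0.96, 1.07 and 1.01 with antimiR-34a. In 85% O2, Gins1 had levels of 0.32, 0.33, 0.41 and 0.29 with scrambled antimiR and 0.21, 0.55, 0.013 and 0.13 with antimiR-34a. Gins1 changed by -0.71 ± 0.090 (scrambled antimiR) and -0.77 ± 0.090 (antimiR-34a), and the oxygen groups did not overlap under either antimiR. The other members of this role changed by -0.68 (Mcm7), -0.67 (Mcm3), -0.53 (Mcm4) and -0.38 (Gins3) with scrambled antimiR. Gins2 differed by -0.39 ± 0.15, not past the test (adjusted p = 0.0525).

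Polymerase and primase subunits fell in 6 of 8 cases under either antimiR, with medians of -0.60 and -0.44. Pola1, the catalytic subunit of polymerase alpha, was at 0.71, 0.68, 0.81 and 0.55 in 21% O2 with scrambled antimiR and 0.55, 0.48, 0.50 and 0.52 with antimiR-34a. In 85% O2, Pola1 was at -0.11, -0.32, -0.042 and -0.18 with scrambled antimiR and -0.29, -0.10, -0.52 and -0.38 with antimiR-34a. Pola1 changed by -0.85 ± 0.087 (scrambled antimiR) and -0.84 ± 0.087 (antimiR-34a), and the oxygen groups did not overlap under either antimiR. Prim1, the catalytic primase subunit, measured 2.79, 3.05, 3.01 and 2.86 in 21% O2 with scrambled antimiR and 2.79, 2.69, 2.83 and 2.85 with antimiR-34a. In 85% O2, Prim1 measured 2.26, 2.24, 2.26 and 2.19 with scrambled antimiR and 2.13, 2.47, 1.71 and 2.01 with antimiR-34a. Prim1 changed by -0.69 ± 0.12 (scrambled antimiR) and -0.71 ± 0.12 (antimiR-34a), and the oxygen groups did not overlap under either antimiR. Pole2, an accessory subunit of polymerase epsilon, had levels of -0.54, -0.67, -0.43 and -0.46 in 21% O2 with scrambled antimiR and -0.74, -0.96, -0.72 and -0.64 with antimiR-34a. In 85% O2, Pole2 had levels of -1.33, -1.21, -1.06 and -1.09 with scrambled antimiR and -1.16, -0.87, -2.02 and -1.09 with antimiR-34a. Pole2 changed by -0.64 ± 0.18 (scrambled antimiR) and -0.52 ± 0.18 (antimiR-34a), and the oxygen groups overlapped only with antimiR-34a. In the 85% O2 antimiR-34a group, Pole2 stood at -2.02 in replicate 3 and between -1.16 and -0.87 in the others. Prim2, the partner of Prim1 in the primase, differed by 0.00014 ± 0.082 and -0.059 ± 0.082 (adjusted p = 0.999 and 0.581), against -0.69 and -0.71 for Prim1. Pole, the catalytic subunit of polymerase epsilon, changed by -0.72 ± 0.12 and -0.59 ± 0.12. Pold1, the catalytic subunit of polymerase delta, changed by -0.34 ± 0.048 and -0.18 ± 0.048, and Pold2 did not pass the test under either antimiR.

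Of the clamp, clamp loader and fragment joining genes, 4 of 6 fell under either antimiR, with a median of -0.38 with scrambled antimiR. Pcna, the sliding clamp, was at 4.42, 4.71, 4.74 and 4.5 in 21% O2 with scrambled antimiR and 4.53, 4.48, 4.59 and 4.57 with antimiR-34a. In 85% O2, Pcna was at 4.19, 4.29, 4.24 and 4.16 with scrambled antimiR and 3.95, 4.28, 3.68 and 3.98 with antimiR-34a. Pcna changed by -0.38 ± 0.10 (scrambled antimiR) and -0.57 ± 0.10 (antimiR-34a), and the oxygen groups did not overlap under either antimiR. Fen1, the flap endonuclease, measured 3.40, 3.55, 3.36 and 3.19 in 21% O2 with scrambled antimiR and 3.40, 3.23, 3.44 and 3.31 with antimiR-34a. In 85% O2, Fen1 measured 2.75, 2.81, 2.99 and 2.63 with scrambled antimiR and 2.58, 2.85, 2.59 and 2.73 with antimiR-34a. Fen1 changed by -0.57 ± 0.094 (scrambled antimiR) and -0.66 ± 0.094 (antimiR-34a), and the oxygen groups did not overlap under either antimiR. Rfc4, a clamp loader subunit, had levels of 1.92, 1.93, 1.81 and 1.78 in 21% O2 with scrambled antimiR and 1.67, 1.58, 1.65 and 1.71 with antimiR-34a. In 85% O2, Rfc4 had levels of 1.60, 1.72, 1.73 and 1.83 with scrambled antimiR and 1.69, 1.93, 1.20 and 1.5 with antimiR-34a. Rfc4 differed by -0.14 ± 0.12 (scrambled antimiR) and -0.074 ± 0.12 (antimiR-34a), neither past the test, and the oxygen groups overlapped under both antimiRs. Rfc5, of the same loader, changed by -0.38 ± 0.063 and -0.16 ± 0.063. Lig1, the ligase that joins Okazaki fragments, changed by -0.44 ± 0.055 and -0.47 ± 0.055.

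Nucleotide supply genes fell in 5 of 5 cases under either antimiR, with medians of -0.69 and -0.71. Tk1, thymidine kinase, was at 3.04, 3.18, 3.21 and 3.04 in 21% O2 with scrambled antimiR and 3.06, 3.1, 2.97 and 2.95 with antimiR-34a. In 85% O2, Tk1 was at 2.30, 2.11, 2.28 and 2.19 with scrambled antimiR and 1.93, 2.33, 1.80 and 2.02 with antimiR-34a. Tk1 changed by -0.90 ± 0.096 (scrambled antimiR) and -1.0 ± 0.096 (antimiR-34a), and the oxygen groups did not overlap under either antimiR. Dut, the dUTPase that keeps uracil out of DNA, measured 1.55, 1.51, 1.61 and 1.51 in 21% O2 with scrambled antimiR and 1.54, 1.47, 1.34 and 1.33 with antimiR-34a. In 85% O2, Dut measured 0.77, 0.65, 0.68 and 0.64 with scrambled antimiR and 0.57, 0.87, 0.56 and 0.85 with antimiR-34a. Dut changed by -0.86 ± 0.080 (scrambled antimiR) and -0.71 ± 0.080 (antimiR-34a), and the oxygen groups did not overlap under either antimiR. Rrm2, the small subunit of ribonucleotide reductase, had levels of 3.95, 4.18, 4.11 and 3.65 in 21% O2 with scrambled antimiR and 4.04, 4.07, 4.16 and 3.94 with antimiR-34a. In 85% O2, Rrm2 had levels of 3.58, 3.13, 3.35 and 3.18 with scrambled antimiR and 2.97, 3.5, 3.03 and 3.07 with antimiR-34a. Rrm2 changed by -0.66 ± 0.14 (scrambled antimiR) and -0.91 ± 0.14 (antimiR-34a), and the oxygen groups did not overlap under either antimiR. Tyms, thymidylate synthase, was at -1.95, -1.79, -1.63 and -1.89 in 21% O2 with scrambled antimiR and -1.98, -1.83, -1.88 and -1.79 with antimiR-34a. In 85% O2, Tyms was at -2.28, -2.60, -2.52 and -2.61 with scrambled antimiR and -2.52, -2.30, -2.60 and -2.53 with antimiR-34a. Tyms changed by -0.69 ± 0.092 (scrambled antimiR) and -0.62 ± 0.092 (antimiR-34a), and the oxygen groups did not overlap under either antimiR. Rrm1, the large subunit of ribonucleotide reductase, changed by -0.41 ± 0.091 and -0.56 ± 0.091.

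All 4 genes that copy chromatin and DNA methylation fell under either antimiR, with medians of -0.81 and -0.69. Uhrf1, which brings the maintenance methyltransferase to new DNA, measured 3.51, 3.57, 3.70 and 3.35 in 21% O2 with scrambled antimiR and 3.35, 3.44, 3.34 and 3.30 with antimiR-34a. In 85% O2, Uhrf1 measured 2.84, 2.37, 2.65 and 2.52 with scrambled antimiR and 2.53, 2.85, 2.68 and 2.63 with antimiR-34a. Uhrf1 changed by -0.93 ± 0.10 (scrambled antimiR) and -0.69 ± 0.10 (antimiR-34a), and the oxygen groups did not overlap under either antimiR. A second Uhrf1 feature differed by -0.23 with scrambled antimiR (adjusted p = 0.506). Chaf1b, a subunit of chromatin assembly factor 1, had levels of 3.21, 3.29, 3.34 and 3.00 in 21% O2 with scrambled antimiR and 3.13, 3.08, 3.13 and 3.09 with antimiR-34a. In 85% O2, Chaf1b had levels of 2.48, 2.39, 2.38 and 2.49 with scrambled antimiR and 2.39, 2.69, 2.29 and 2.31 with antimiR-34a. Chaf1b changed by -0.78 ± 0.090 (scrambled antimiR) and -0.69 ± 0.090 (antimiR-34a), and the oxygen groups did not overlap under either antimiR. Cdca7, a partner of the remodeller Hells, was at 2.58, 2.40, 2.59 and 2.28 in 21% O2 with scrambled antimiR and 2.35, 2.26, 2.40 and 2.32 with antimiR-34a. In 85% O2, Cdca7 was at 1.84, 1.61, 1.60 and 1.41 with scrambled antimiR and 1.46, 1.81, 1.56 and 1.70 with antimiR-34a. Cdca7 changed by -0.84 ± 0.10 (scrambled antimiR) and -0.70 ± 0.10 (antimiR-34a), and the oxygen groups did not overlap under either antimiR. Chaf1a, the large subunit of the assembly factor, changed by -0.60 ± 0.082 and -0.54 ± 0.082.

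The G1/S cyclins and E2F factors fell in 3 of 3 tested cases with scrambled antimiR and in 2 of 3 with antimiR-34a. Ccne1, cyclin E1, measured 1.92, 2.03, 2.02 and 1.80 in 21% O2 with scrambled antimiR and 1.62, 1.69, 1.75 and 1.67 with antimiR-34a. In 85% O2, Ccne1 measured 1.21, 1.02, 1.22 and 0.93 with scrambled antimiR and 0.92, 1.34, 0.94 and 1.06 with antimiR-34a. Ccne1 changed by -0.85 ± 0.097 (scrambled antimiR) and -0.62 ± 0.097 (antimiR-34a), and the oxygen groups did not overlap under either antimiR. E2f1, an activating E2F factor, had levels of 1.42, 1.55, 1.55 and 1.44 in 21% O2 with scrambled antimiR and 1.46, 1.55, 1.54 and 1.32 with antimiR-34a. In 85% O2, E2f1 had levels of 0.93, 0.81, 0.90 and 1.01 with scrambled antimiR and 0.88, 1.02, 0.92 and 0.98 with antimiR-34a. E2f1 changed by -0.58 ± 0.066 (scrambled antimiR) and -0.52 ± 0.066 (antimiR-34a), and the oxygen groups did not overlap under either antimiR. E2f2, another activating one, was at 3.59, 3.83, 3.60 and 3.54 in 21% O2 with scrambled antimiR and 3.61, 3.48, 3.62 and 3.83 with antimiR-34a. In 85% O2, E2f2 was at 3.45, 3.07, 3.20 and 3.22 with scrambled antimiR and 3.41, 3.33, 3.76 and 3.49 with antimiR-34a. E2f2 changed by -0.41 ± 0.11 (scrambled antimiR), while its difference of -0.14 ± 0.11 with antimiR-34a did not pass the test, and the oxygen groups overlapped only with antimiR-34a. Ccne2, cyclin E2, was not well above background in any lung. Its signal was -7.98, -8.41, -8.61 and -8.13 in 21% O2 with scrambled antimiR and -6.91, -8.10, -8.01 and -6.93 with antimiR-34a. In 85% O2, it was -8.27, -8.43, -8.39 and -8.44 and -7.80, -7.91, -7.45 and -7.91, so no direction is given. The P14 signals of Ccne2 were -8.73, -8.73, -8.75 and -7.96 and -8.55, -7.86, -7.97 and -8.08 in 21% O2, and -8.14, -8.33, -7.98 and -7.92 and -8.04, -8.05, -8.14 and -8.02 in 85% O2, also under the detection rule.

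Replication-coupled repair genes fell in 2 of 3 cases with scrambled antimiR and in 3 of 3 with antimiR-34a, the third being Brca1, which passed the filter only through a group outside that comparison. Exo1, a 5′ to 3′ exonuclease of mismatch and resection repair, measured 0.75, 0.97, 0.90 and 0.52 in 21% O2 with scrambled antimiR and 0.43, 0.37, 0.56 and 0.43 with antimiR-34a. In 85% O2, Exo1 measured 0.19, 0.045, 0.16 and -0.15 with scrambled antimiR and -0.19, 0.16, -0.63 and -0.24 with antimiR-34a. Exo1 changed by -0.72 ± 0.14 (scrambled antimiR) and -0.67 ± 0.14 (antimiR-34a), and the oxygen groups did not overlap under either antimiR. Blm, the Bloom helicase, changed by -0.44 ± 0.11 and -0.39 ± 0.11. Brca1, which protects stalled forks, was above background in 4 of 4 lungs in 21% O2 with scrambled antimiR and in 2 of 4 with antimiR-34a, where it measured -5.25, -5.09, -5.33 and -5.56 and -5.25, -4.57, -5.99 and -5.73. In 85% O2, it was above background in 2 of 4 lungs with scrambled antimiR, at -5.91, -7.00, -5.79 and -5.75, and in 0 of 4 with antimiR-34a, at -6.28, -6.60, -7.32 and -7.74. The fitted Brca1 difference passed limma's test with antimiR-34a (adjusted p = 0.00245) but not with scrambled antimiR (adjusted p = 0.0852). No fold is given with antimiR-34a, since no 85% O2 lung and only 2 of 4 lungs in 21% O2 were above background.

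**Figure D2:**
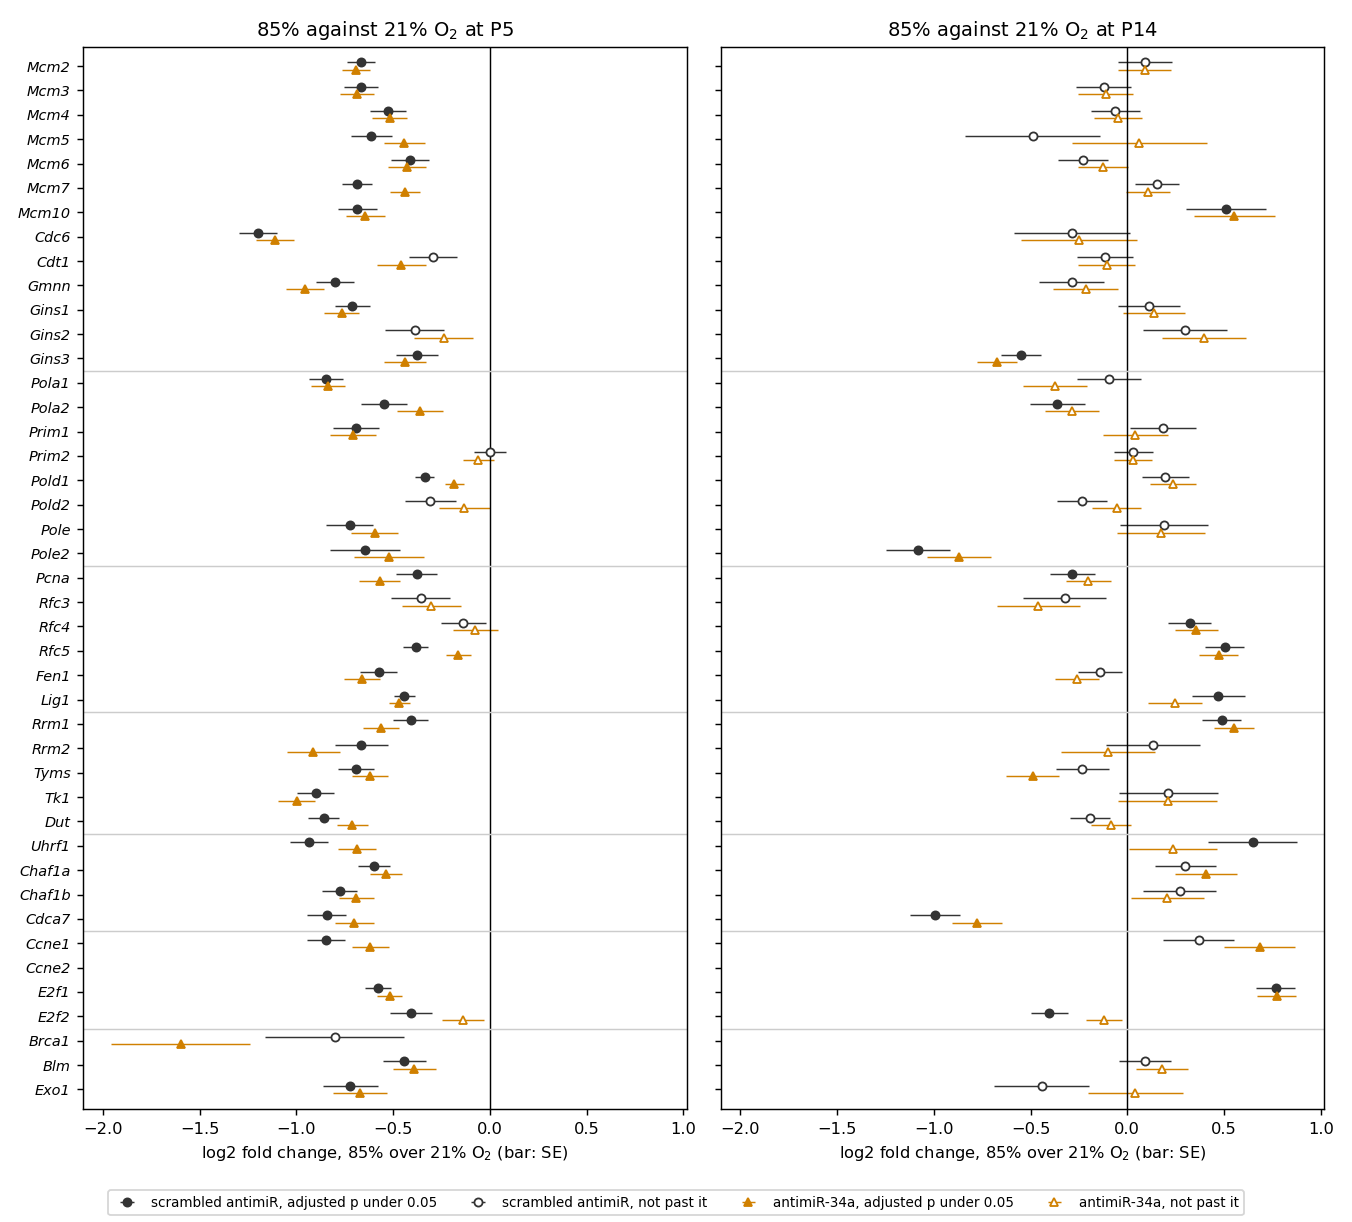
Log2 fold change of 85% over 21% O2 for each tested member at P5 (left) and P14 (right), with bars of 1 SE. Black circles are scrambled antimiR and orange triangles antimiR-34a, filled where the adjusted p was under 0.05, and grey lines part the 7 roles. At P5 the filled points all lie below 0, whereas at P14 7 filled black points lie above 0 and 6 below it.

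Groups did not overlap at P5 for 38 of 42 members with scrambled antimiR and 32 of 42 with antimiR-34a, all lower in 85% O2, where 19.1% and 20.6% of all genes were separated in that direction. Over the 41 members above background on all arrays, the counts were 37 and 31. Related lists were read in the same comparison, in which 21.1% of all genes fell and 25.8% rose. Of 45 other replication factors, 29 fell and 0 rose at P5 with scrambled antimiR, among them the histone chaperones Asf1b (-0.91 ± 0.10) and Nasp (-0.89 ± 0.073) and the checkpoint adaptor Clspn (-0.87 ± 0.16). All 24 tested mitosis genes fell, with a median of -0.96, led by Cdk1 (-1.51 ± 0.13), Plk1 (-1.17 ± 0.10) and Aurka (-1.16 ± 0.095). The 29 G1/S control genes were mixed, with 12 lower and 6 higher, and the higher share lies under that of all genes. Cyclin A2 (Ccna2, -1.10 ± 0.13), E2f4 (-1.37 ± 0.20) and Cdkn2c (-1.23 ± 0.13) fell. Cdkn1a, the p21 inhibitor of cyclin-dependent kinases, rose by 3.89 ± 0.15, cyclin D1 (Ccnd1) by 1.05 ± 0.062 and Cdkn2b by 1.03 ± 0.11. Each of the 15 p53 targets rose, with a median of 1.51, and Gdf15 (4.81 ± 0.085) and Eda2r (4.69 ± 0.27) rose most.

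Marker genes of other cells moved with oxygen at P5 as well. Red blood cell markers fell in 3 of 7 tested cases with scrambled antimiR, and their mean level ranged from 0.69 to 1.24 in 21% O2 and -0.44 to 0.73 in 85% O2. Lung fibroblast markers fell in 7 of 8 cases, with ranges of -0.11 to 0.22 and -0.66 to -0.42. Type I pneumocyte markers rose in 6 of 8 and fell in 1, with ranges of -0.59 to -0.34 and -0.042 to 0.038, and all 5 tested macrophage markers rose. Heart muscle markers fell in 6 of 8 cases, with ranges of -0.37 to 1.76 and -2.14 to -0.33, and adipocyte markers in 2 of 4 tested cases, with ranges of -1.03 to 0.16 and -1.79 to -1.45. With antimiR-34a, mean macrophage level ranged from -0.88 to -0.64 in 21% O2 and 0.16 to 0.50 in 85% O2. Lung fibroblast level ranged from -0.25 to -0.065 and -0.50 to -0.36, and type I pneumocyte level from -0.32 to -0.29 and 0.017 to 0.10. Red blood cell level overlapped, at 0.13 to 2.04 and -0.12 to 1.10. The part of these shifts in the changes of the replication genes was not tested. Without replicate 4 of the 21% O2 scrambled group, the one with the highest skeletal muscle level, 35 members were called at P5 with scrambled antimiR and the median was -0.64.

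At P14, near the end of septation, members moved in both directions with oxygen, and the sign of their median changed with single pups left out. With scrambled antimiR, 7 of 41 tested members rose and 6 fell, with a median of 0.032. Of all 17673 genes tested, 33.4% rose and 29.2% fell, with a median of 0.022. With antimiR-34a, 7 rose and 4 fell, with a median of 0.041, against 37.3% and 28.2% of all genes. The 7 include E2f1, Mcm10, Rfc4, Rfc5 and Rrm1, which also rose with scrambled antimiR. They also include Ccne1, whose second feature fell, so the direction of Ccne1 is not settled. Under quantile normalization, the scrambled split was 3 higher and 6 lower and the antimiR-34a split 8 higher and 7 lower. The members' mean level was -0.54, -0.45, -0.39 and -0.50 in 21% O2 and -0.28, -0.46, -0.44 and -0.65 in 85% O2 with scrambled antimiR. With antimiR-34a it was -0.21, -0.58, -0.34 and -0.69 and -0.26, -0.73, -0.30 and -0.42, and the groups overlapped under both antimiRs. For single members, oxygen groups did not overlap for 8 of 41 higher and 5 lower with scrambled antimiR, and for 3 and 4 with antimiR-34a. Of all genes, 32.4% and 26.9% were so separated with scrambled antimiR and 35.2% and 25.1% with antimiR-34a, all larger shares than among the members.

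The members that rose with scrambled antimiR were E2f1, Uhrf1, Mcm10, Rfc5, Rrm1, Lig1 and Rfc4. At P14, E2f1 had levels of 0.12, 0.39, 0.35 and 0.098 in 21% O2 with scrambled antimiR and 0.27, 0.10, 0.21 and -0.026 with antimiR-34a. For 85% O2, E2f1 had levels of 0.96, 0.94, 1.01 and 1.11 with scrambled antimiR and 1.10, 0.69, 0.92 and 0.94 with antimiR-34a. E2f1 changed by 0.77 ± 0.10 (scrambled antimiR) and 0.77 ± 0.10 (antimiR-34a), and the oxygen groups did not overlap under either antimiR. E2f1 rose more than the other members, with adjusted p of 2.1e-05 and 1.64e-05. At P14, Uhrf1 was at 0.76, 1.10, 0.95 and 1.49 in 21% O2 with scrambled antimiR and 1.59, 1.27, 1.64 and 0.93 with antimiR-34a. For 85% O2, Uhrf1 was at 1.73, 1.57, 1.93 and 1.65 with scrambled antimiR and 2.03, 0.90, 1.76 and 1.68 with antimiR-34a. Uhrf1 changed by 0.65 ± 0.23 (scrambled antimiR), while its difference of 0.23 ± 0.23 with antimiR-34a did not pass the test, and the oxygen groups overlapped only with antimiR-34a. The second Uhrf1 feature differed by 0.071 with scrambled antimiR (adjusted p = 0.815), so the rise rests on the brighter feature. It also missed the test in 3 of the 8 fits that left out 1 pup. At P14, Mcm10 measured -0.74, -0.79, -0.47 and -0.62 in 21% O2 with scrambled antimiR and -0.11, -0.82, -0.46 and -1.16 with antimiR-34a. For 85% O2, Mcm10 measured 0.073, -0.35, 0.074 and -0.39 with scrambled antimiR and 0.084, -0.49, 0.21 and -0.14 with antimiR-34a. Mcm10 changed by 0.51 ± 0.21 (scrambled antimiR) and 0.55 ± 0.21 (antimiR-34a), and the oxygen groups overlapped only with antimiR-34a. At P14, Rfc4 had levels of 0.93, 1.0, 1.06 and 1.04 in 21% O2 with scrambled antimiR and 1.33, 0.82, 1.07 and 0.83 with antimiR-34a. For 85% O2, Rfc4 had levels of 1.54, 1.29, 1.35 and 1.15 with scrambled antimiR and 1.41, 1.35, 1.47 and 1.25 with antimiR-34a. Rfc4 changed by 0.32 ± 0.11 (scrambled antimiR) and 0.36 ± 0.11 (antimiR-34a), and the oxygen groups overlapped only with antimiR-34a. The second feature for Rfc4 gave 0.70 and 0.65. At P14, Rfc5 was at 1.46, 1.5, 1.56 and 1.51 in 21% O2 with scrambled antimiR and 1.70, 1.4, 1.65 and 1.36 with antimiR-34a. For 85% O2, Rfc5 was at 2.16, 2.01, 2.01 and 1.87 with scrambled antimiR and 2.14, 1.77, 2.13 and 1.97 with antimiR-34a. Rfc5 changed by 0.50 ± 0.10 (scrambled antimiR) and 0.47 ± 0.10 (antimiR-34a), and the oxygen groups did not overlap under either antimiR. At P14, Rrm1 measured 1.56, 1.45, 1.58 and 1.34 in 21% O2 with scrambled antimiR and 1.77, 1.31, 1.54 and 1.32 with antimiR-34a. For 85% O2, Rrm1 measured 2.07, 1.94, 1.98 and 1.89 with scrambled antimiR and 2.13, 1.88, 2.06 and 2.07 with antimiR-34a. Rrm1 changed by 0.49 ± 0.10 (scrambled antimiR) and 0.55 ± 0.10 (antimiR-34a), and the oxygen groups did not overlap under either antimiR. At P14, Lig1 had levels of 2.25, 2.34, 2.38 and 2.41 in 21% O2 with scrambled antimiR and 2.49, 2.20, 2.50 and 2.16 with antimiR-34a. For 85% O2, Lig1 had levels of 2.93, 2.69, 2.88 and 2.76 with scrambled antimiR and 2.82, 2.12, 2.81 and 2.59 with antimiR-34a. Lig1 changed by 0.47 ± 0.14 (scrambled antimiR), while its difference of 0.25 ± 0.14 with antimiR-34a did not pass the test, and the oxygen groups overlapped only with antimiR-34a.

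The members that fell with scrambled antimiR were Pole2, Cdca7, Gins3, E2f2, Pola2 and Pcna, and with antimiR-34a they were Pole2, Cdca7, Gins3 and Tyms. At P14, Pole2 was at -1.26, -1.0, -1.03 and -1.14 in 21% O2 with scrambled antimiR and -1.01, -1.31, -1.08 and -1.41 with antimiR-34a. For 85% O2, Pole2 was at -1.79, -2.19, -2.34 and -2.45 with scrambled antimiR and -1.88, -2.54, -1.89 and -1.98 with antimiR-34a. Pole2 changed by -1.08 ± 0.17 (scrambled antimiR) and -0.87 ± 0.17 (antimiR-34a), and the oxygen groups did not overlap under either antimiR. Adjusted p was 7.53e-05 and 0.000373. At P14, Cdca7 measured 1.18, 1.26, 1.29 and 1.28 in 21% O2 with scrambled antimiR and 1.4, 1.15, 1.52 and 1.03 with antimiR-34a. For 85% O2, Cdca7 measured 0.35, 0.21, 0.39 and 0.092 with scrambled antimiR and 0.58, 0.11, 0.60 and 0.69 with antimiR-34a. Cdca7 changed by -0.99 ± 0.13 (scrambled antimiR) and -0.78 ± 0.13 (antimiR-34a), and the oxygen groups did not overlap under either antimiR. At P14, Gins3, a GINS subunit, had levels of 3.94, 3.89, 3.92 and 3.67 in 21% O2 with scrambled antimiR and 3.73, 3.82, 3.81 and 3.84 with antimiR-34a. For 85% O2, Gins3 had levels of 3.56, 3.37, 3.19 and 3.1 with scrambled antimiR and 3.15, 3.22, 3.20 and 2.93 with antimiR-34a. Gins3 changed by -0.55 ± 0.10 (scrambled antimiR) and -0.67 ± 0.10 (antimiR-34a), and the oxygen groups did not overlap under either antimiR. At P14, E2f2 was at 3.08, 2.99, 3.04 and 3.01 in 21% O2 with scrambled antimiR and 3.1, 3.02, 2.97 and 2.88 with antimiR-34a. For 85% O2, E2f2 was at 2.60, 2.45, 2.82 and 2.65 with scrambled antimiR and 2.83, 2.77, 2.75 and 3.13 with antimiR-34a. E2f2 changed by -0.40 ± 0.095 (scrambled antimiR), while its difference of -0.12 ± 0.095 with antimiR-34a did not pass the test, and the oxygen groups overlapped only with antimiR-34a. At P14, Pola2, the second subunit of polymerase alpha, measured -3.23, -3.13, -3.1 and -3.39 in 21% O2 with scrambled antimiR and -3.12, -3.08, -3.44 and -3.5 with antimiR-34a. For 85% O2, Pola2 measured -3.19, -3.64, -3.58 and -3.88 with scrambled antimiR and -3.65, -3.59, -3.37 and -3.67 with antimiR-34a. Pola2 changed by -0.36 ± 0.14 (scrambled antimiR), while its difference of -0.28 ± 0.14 with antimiR-34a did not pass the test, and the oxygen groups overlapped under both antimiRs. At P14, Pcna had levels of 3.84, 3.87, 3.82 and 3.85 in 21% O2 with scrambled antimiR and 4.00, 3.71, 3.96 and 3.63 with antimiR-34a. For 85% O2, Pcna had levels of 3.85, 3.40, 3.63 and 3.37 with scrambled antimiR and 3.63, 3.42, 3.67 and 3.78 with antimiR-34a. Pcna changed by -0.29 ± 0.12 (scrambled antimiR), while its difference of -0.20 ± 0.12 with antimiR-34a did not pass the test, and the oxygen groups overlapped under both antimiRs. At P14, Tyms was at -2.74, -2.48, -2.66 and -2.15 in 21% O2 with scrambled antimiR and -2.31, -2.32, -2.22 and -2.36 with antimiR-34a. For 85% O2, Tyms was at -2.36, -2.85, -2.85 and -2.89 with scrambled antimiR and -2.83, -2.94, -2.79 and -2.60 with antimiR-34a. Tyms changed by -0.49 ± 0.14 with antimiR-34a, while its difference of -0.23 ± 0.14 with scrambled antimiR did not pass the test, and the oxygen groups overlapped only with scrambled antimiR. E2f1 and E2f2 therefore moved in opposite directions at P14 in scrambled antimiR mice.

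**Figure D3:**
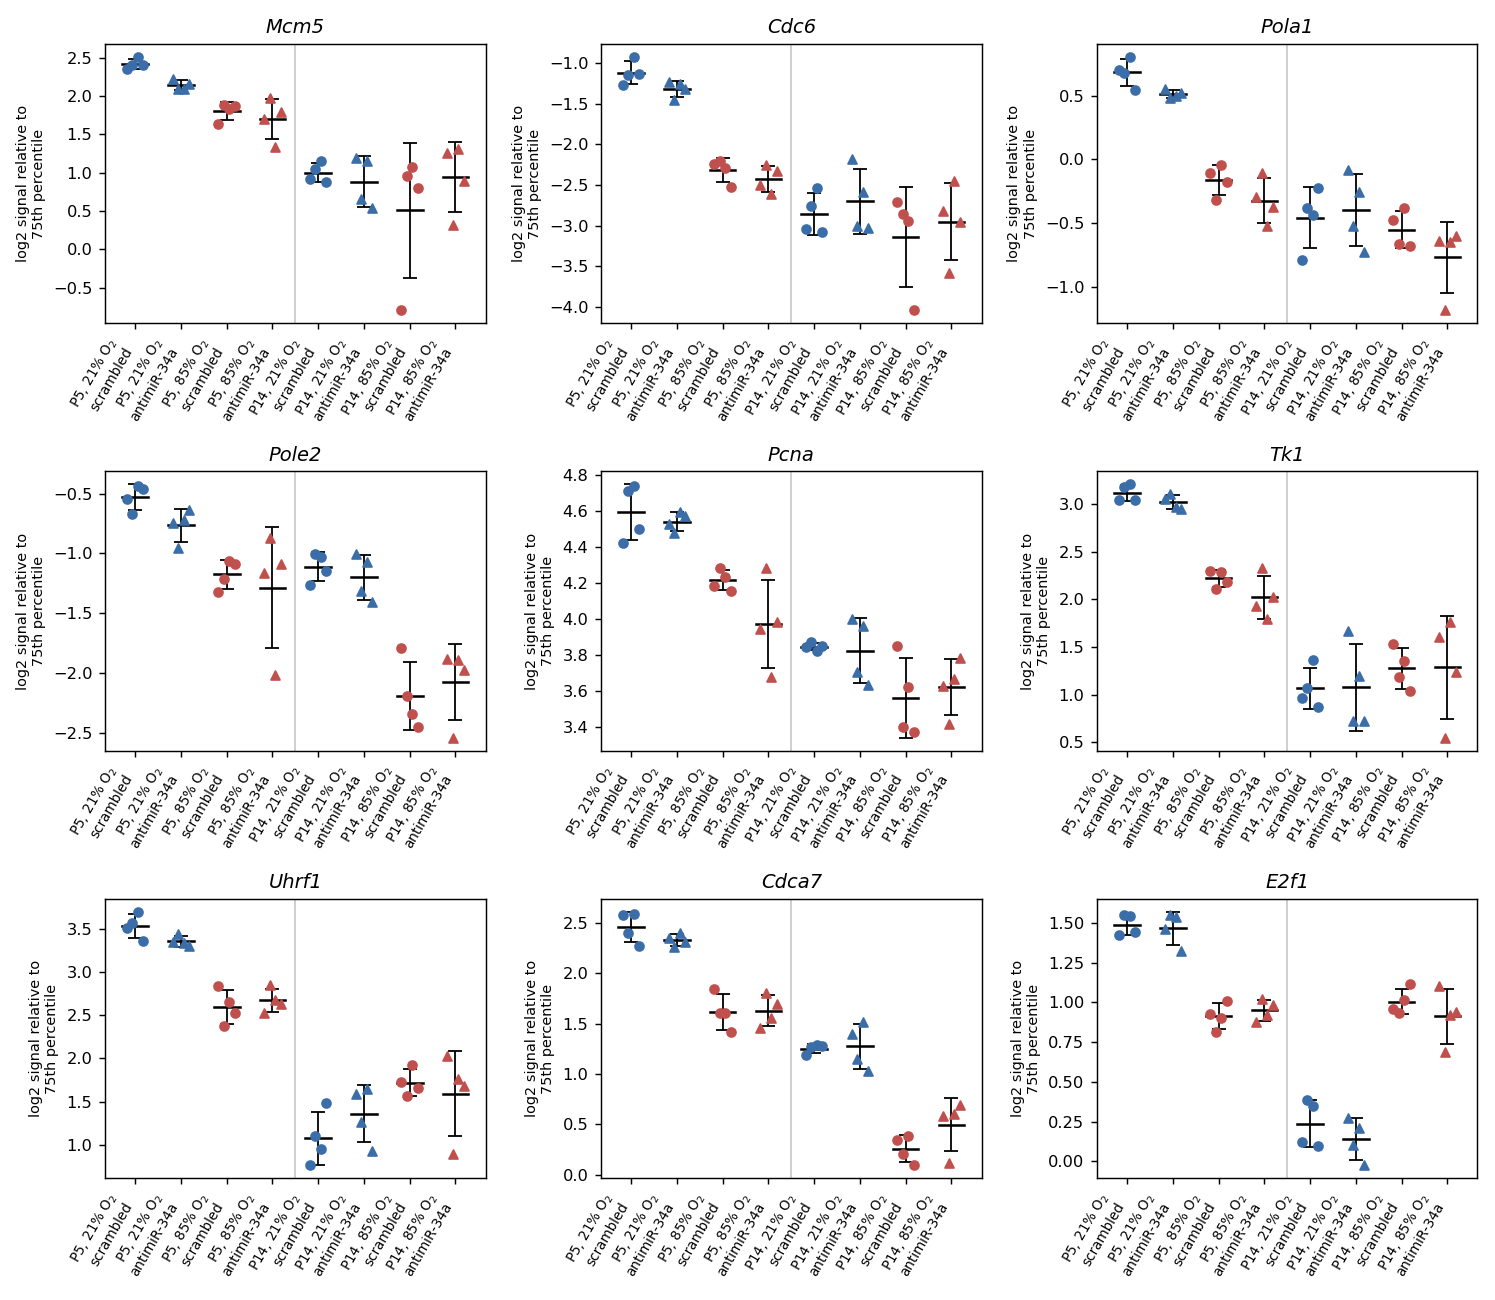
Levels of 9 members in each mouse (points, 4 per group), as log2 signal with each array's 75th percentile at 0, and with the mean ± SD in black, 21% O2 in blue, 85% O2 in red, circles for scrambled antimiR and triangles for antimiR-34a. The group means of all 9 are lower in 85% O2 at P5, whereas at P14 E2f1 is higher in 85% O2, Pole2 and Cdca7 are lower, and Mcm5, Cdc6, Pola1 and Tk1 overlap.

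Licensing and helicase genes otherwise overlapped between oxygen levels at P14, and 11 of 13 did not pass the test with scrambled antimiR. At P14, Mcm2 measured 0.39, 0.52, 0.53 and 0.23 in 21% O2 with scrambled antimiR and 0.55, 0.25, 0.60 and 0.17 with antimiR-34a. For 85% O2, Mcm2 measured 0.77, 0.54, 0.50 and 0.22 with scrambled antimiR and 0.55, 0.19, 0.52 and 0.67 with antimiR-34a. Mcm2 differed by 0.092 ± 0.14 (scrambled antimiR) and 0.090 ± 0.14 (antimiR-34a), neither past the test, and the oxygen groups overlapped under both antimiRs. At P14, Mcm5 had levels of 0.92, 1.05, 1.15 and 0.88 in 21% O2 with scrambled antimiR and 1.19, 0.65, 1.15 and 0.54 with antimiR-34a. For 85% O2, Mcm5 had levels of -0.80, 0.96, 1.07 and 0.80 with scrambled antimiR and 1.26, 0.32, 1.31 and 0.89 with antimiR-34a. Mcm5 differed by -0.49 ± 0.35 (scrambled antimiR) and 0.063 ± 0.35 (antimiR-34a), neither past the test, and the oxygen groups overlapped under both antimiRs. Replicate 1 of the 85% O2 scrambled group lay far below the others for Mcm5, and that group without it spanned 0.80 to 1.07. At P14, Mcm6 was at 3.92, 3.97, 4.07 and 3.98 in 21% O2 with scrambled antimiR and 4.15, 3.78, 4.06 and 3.73 with antimiR-34a. For 85% O2, Mcm6 was at 4.05, 3.74, 3.63 and 3.60 with scrambled antimiR and 3.92, 3.49, 3.91 and 3.90 with antimiR-34a. Mcm6 differed by -0.23 ± 0.13 (scrambled antimiR) and -0.13 ± 0.13 (antimiR-34a), neither past the test, and the oxygen groups overlapped under both antimiRs. At P14, Cdc6 measured -3.04, -2.75, -2.54 and -3.08 in 21% O2 with scrambled antimiR and -2.18, -3.00, -2.59 and -3.03 with antimiR-34a. For 85% O2, Cdc6 measured -2.71, -2.86, -2.95 and -4.04 with scrambled antimiR and -2.82, -3.59, -2.45 and -2.96 with antimiR-34a. Cdc6 differed by -0.28 ± 0.30 (scrambled antimiR) and -0.25 ± 0.30 (antimiR-34a), neither past the test, and the oxygen groups overlapped under both antimiRs. The second Cdc6 feature gave -0.19 and 0.35, neither past the test. At P14, Cdt1 had levels of 1.82, 2.04, 2.04 and 1.71 in 21% O2 with scrambled antimiR and 2.15, 1.69, 2.02 and 1.56 with antimiR-34a. For 85% O2, Cdt1 had levels of 1.98, 1.79, 1.80 and 1.57 with scrambled antimiR and 1.91, 1.49, 1.95 and 1.63 with antimiR-34a. Cdt1 differed by -0.11 ± 0.15 (scrambled antimiR) and -0.11 ± 0.15 (antimiR-34a), neither past the test, and the oxygen groups overlapped under both antimiRs. At P14, Gmnn was at -0.88, -0.84, -0.90 and -0.97 in 21% O2 with scrambled antimiR and -0.52, -1.08, -0.88 and -1.15 with antimiR-34a. For 85% O2, Gmnn was at -0.94, -1.33, -1.03 and -1.43 with scrambled antimiR and -0.95, -1.61, -0.92 and -1.02 with antimiR-34a. Gmnn differed by -0.29 ± 0.17 (scrambled antimiR) and -0.22 ± 0.17 (antimiR-34a), neither past the test, and the oxygen groups overlapped under both antimiRs. The second Gmnn feature differed by 1.01 with scrambled antimiR (adjusted p = 0.0534) and 0.78 with antimiR-34a (adjusted p = 0.121). At P14, Gins1 measured -0.41, -0.36, -0.24 and -0.64 in 21% O2 with scrambled antimiR and -0.13, -0.63, -0.34 and -0.80 with antimiR-34a. For 85% O2, Gins1 measured -0.012, -0.35, -0.35 and -0.49 with scrambled antimiR and -0.10, -0.67, -0.20 and -0.37 with antimiR-34a. Gins1 differed by 0.11 ± 0.16 (scrambled antimiR) and 0.14 ± 0.16 (antimiR-34a), neither past the test, and the oxygen groups overlapped under both antimiRs.

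Next come the polymerase, fragment joining and nucleotide supply genes that did not pass the test at P14. At P14, Pola1 had levels of -0.79, -0.38, -0.44 and -0.22 in 21% O2 with scrambled antimiR and -0.082, -0.52, -0.26 and -0.73 with antimiR-34a. For 85% O2, Pola1 had levels of -0.48, -0.66, -0.38 and -0.68 with scrambled antimiR and -0.64, -1.19, -0.65 and -0.60 with antimiR-34a. Pola1 differed by -0.094 ± 0.17 (scrambled antimiR) and -0.37 ± 0.17 (antimiR-34a), neither past the test, and the oxygen groups overlapped under both antimiRs. At P14, Prim1 was at 1.07, 1.21, 1.22 and 1.15 in 21% O2 with scrambled antimiR and 1.52, 0.98, 1.34 and 0.93 with antimiR-34a. For 85% O2, Prim1 was at 1.63, 1.36, 1.22 and 1.19 with scrambled antimiR and 1.42, 0.73, 1.51 and 1.26 with antimiR-34a. Prim1 differed by 0.18 ± 0.17 (scrambled antimiR) and 0.042 ± 0.17 (antimiR-34a), neither past the test, and the oxygen groups overlapped under both antimiRs. At P14, Fen1 measured 2.10, 2.23, 2.41 and 2.37 in 21% O2 with scrambled antimiR and 2.42, 2.28, 2.39 and 1.95 with antimiR-34a. For 85% O2, Fen1 measured 2.20, 2.19, 2.08 and 2.08 with scrambled antimiR and 2.12, 1.77, 2.12 and 1.99 with antimiR-34a. Fen1 differed by -0.14 ± 0.11 (scrambled antimiR) and -0.26 ± 0.11 (antimiR-34a), neither past the test, and the oxygen groups overlapped under both antimiRs. At P14, Rrm2 had levels of 1.85, 1.96, 2.19 and 2.21 in 21% O2 with scrambled antimiR and 2.70, 1.90, 2.42 and 1.81 with antimiR-34a. For 85% O2, Rrm2 had levels of 2.28, 2.00, 2.34 and 2.13 with scrambled antimiR and 2.52, 1.34, 2.45 and 2.13 with antimiR-34a. Rrm2 differed by 0.13 ± 0.24 (scrambled antimiR) and -0.099 ± 0.24 (antimiR-34a), neither past the test, and the oxygen groups overlapped under both antimiRs. At P14, Tk1 was at 0.97, 1.06, 1.36 and 0.86 in 21% O2 with scrambled antimiR and 1.66, 0.72, 1.20 and 0.72 with antimiR-34a. For 85% O2, Tk1 was at 1.53, 1.18, 1.35 and 1.04 with scrambled antimiR and 1.60, 0.54, 1.76 and 1.23 with antimiR-34a. Tk1 differed by 0.21 ± 0.26 (scrambled antimiR) and 0.21 ± 0.26 (antimiR-34a), neither past the test, and the oxygen groups overlapped under both antimiRs. At P14, Dut measured 0.34, 0.42, 0.51 and 0.36 in 21% O2 with scrambled antimiR and 0.58, 0.40, 0.46 and 0.092 with antimiR-34a. For 85% O2, Dut measured 0.28, 0.18, 0.37 and 0.020 with scrambled antimiR and 0.40, 0.19, 0.35 and 0.26 with antimiR-34a. Dut differed by -0.19 ± 0.10 (scrambled antimiR) and -0.085 ± 0.10 (antimiR-34a), neither past the test, and the oxygen groups overlapped under both antimiRs. The second Dut feature fell by 0.557 with antimiR-34a (adjusted p = 0.0125).

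At P14, Chaf1b had levels of 1.60, 1.68, 1.72 and 1.48 in 21% O2 with scrambled antimiR and 1.79, 1.27, 1.68 and 1.25 with antimiR-34a. For 85% O2, Chaf1b had levels of 2.14, 1.84, 1.85 and 1.73 with scrambled antimiR and 2.02, 1.09, 2.02 and 1.67 with antimiR-34a. Chaf1b differed by 0.27 ± 0.19 (scrambled antimiR) and 0.21 ± 0.19 (antimiR-34a), neither past the test, and the oxygen groups overlapped only with antimiR-34a. At P14, Exo1 was at -1.5, -1.4, -1.23 and -1.33 in 21% O2 with scrambled antimiR and -0.92, -1.55, -1.06 and -1.56 with antimiR-34a. For 85% O2, Exo1 was at -1.56, -1.67, -1.65 and -2.35 with scrambled antimiR and -0.92, -2.02, -0.93 and -1.06 with antimiR-34a. Exo1 differed by -0.44 ± 0.24 (scrambled antimiR) and 0.041 ± 0.24 (antimiR-34a), neither past the test, and the oxygen groups overlapped only with antimiR-34a. At P14, Ccne1 measured -0.26, -0.17, 0.067 and -0.13 in 21% O2 with scrambled antimiR and 0.28, -0.40, 0.12 and -0.53 with antimiR-34a. For 85% O2, Ccne1 measured 0.39, 0.11, 0.42 and 0.058 with scrambled antimiR and 0.67, 0.12, 0.72 and 0.69 with antimiR-34a. Ccne1 changed by 0.69 ± 0.18 with antimiR-34a, while its difference of 0.37 ± 0.18 with scrambled antimiR did not pass the test, and the oxygen groups overlapped under both antimiRs. The second feature for Ccne1 moved the other way, by -0.89 with scrambled antimiR (adjusted p = 0.0166) and -1.77 with antimiR-34a (adjusted p = 0.000114), so no direction is given for cyclin E1 at P14. Brca1 was not above background in any P14 lung. Its signal was -7.55, -8.05, -8.45 and -7.67 and -6.62, -7.61, -7.73 and -7.77 in 21% O2, and -6.86, -6.54, -7.64 and -7.59 and -6.28, -5.79, -7.83 and -7.71 in 85% O2, with scrambled antimiR first.

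The related lists were read at P14 against the 33.4% of all genes that rose and the 29.2% that fell with scrambled antimiR. Of 24 tested mitosis genes, 8 fell and 0 rose with scrambled antimiR, with a median of -0.40, and the share that fell lies near that of all genes. Ttk (-1.41 ± 0.46), Cenpa (-0.99 ± 0.24) and Cdk1 (-0.93 ± 0.25) fell most. Mean mitosis level in scrambled mice was -0.52 ± 0.077 in 21% O2 and -0.97 ± 0.20 in 85% O2 (SD over the 4 mice). The corresponding replication means were -0.47 ± 0.064 and -0.45 ± 0.15, and the difference between these lists was not tested. Of the 45 other replication factors, 12 rose and 11 fell, both smaller shares than over all genes. Orc2 of the origin recognition complex (0.95 ± 0.10), the helicase Recql4 (0.86 ± 0.15) and Pole3 (0.78 ± 0.066) rose, while Mcm8 (-1.33 ± 0.43), deoxycytidine kinase (Dck, -1.19 ± 0.20) and the histone mRNA factor Slbp (-0.63 ± 0.14) fell. Among G1/S control genes, 8 rose and 10 of 29 fell, shares near those of all genes, with Cdkn1a at 4.41 ± 0.12, Ccnd1 at 1.82 ± 0.091 and Cdkn2b at 1.07 ± 0.17, against Cdkn2c at -1.73 ± 0.17, E2f4 at -1.4 ± 0.087 and Cdkn1c at -1.01 ± 0.11. The p53 targets rose in 14 of 15 cases, with a median of 2.03.

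Markers of other tissues moved with oxygen at P14 too. Macrophage markers rose in 4 of 5 tested cases with scrambled antimiR, with a mean level of -0.40 to -0.17 in 21% O2 and 0.53 to 1.11 in 85% O2. Lung fibroblast markers fell in 5 of 8 cases, with ranges of 0.53 to 0.60 and -0.16 to -0.10. Heart muscle markers fell in 5 of 8 cases, with ranges of 0.79 to 1.79 and -1.12 to 0.19, and red blood cell markers in 4 of 7. All 8 B cell markers and 6 of 8 thymus markers fell in 85% O2 with scrambled antimiR, and all 7 tested adipocyte markers fell. Thymus level ranged from 0.79 to 1.16 in 21% O2 and -0.91 to -0.073 in 85% O2, and B cell level from 0.74 to 1.01 and -0.70 to -0.25. Adipocyte level ranged from 2.26 to 5.18 and -2.02 to -1.60 in the same groups. Thymocytes and B cell precursors also divide, and the part of these cells and tissues in the P14 levels of the replication genes was not tested. Without replicate 1 of the 21% O2 antimiR-34a group, which held the highest thymus level, 12 members were called with antimiR-34a, 8 higher and 4 lower, and the median was 0.142. With antimiR-34a, all 7 tested adipocyte markers, all 8 B cell markers, 7 of 8 thymus markers, 5 of 8 lung fibroblast markers and 4 of 8 heart muscle markers fell, and 4 of 5 tested macrophage markers rose. Without replicate 4 of the 85% O2 antimiR-34a group, which held the highest adipocyte level there, 11 members were called and the median was 0.027.

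The change in oxygen response between the ages was itself tested. The log2 fold change of 85% over 21% O2 was higher at P14 than at P5 for 29 of 42 members with scrambled antimiR and lower for 0, with a median difference of 0.60, against 23% of 17880 genes higher. With antimiR-34a, 26 were higher and 0 lower, with a median of 0.60, against 26.1% of all genes. Both counts include Brca1, which entered only through the P5 21% O2 scrambled group and was above background in no P14 lung. Over the 41 members above background on all arrays, the counts were 28 and 25 and the medians 0.545 and 0.575. Among these, the differences were largest in Uhrf1 (1.58 ± 0.26, adjusted p = 3.31e-05) and E2f1 (1.34 ± 0.12, adjusted p = 8e-09) with scrambled antimiR, and in Ccne1 (1.30 ± 0.21) and E2f1 (1.29 ± 0.12) with antimiR-34a. The second Uhrf1 feature differed by 0.299 with scrambled antimiR (adjusted p = 0.551). The second Ccne1 feature passed the test in the opposite direction with antimiR-34a (-0.955, adjusted p = 0.022), so no direction is given for Ccne1. Among the 5 nucleotide supply genes, all 5 differed with scrambled antimiR, with a median of 0.80, compared with 4 of 8 polymerase and primase genes and a median of 0.36. Pole2, Cdca7, Gins3, E2f2, Pola2 and Pcna were lower in 85% O2 at both ages with scrambled antimiR. For Pole2 and Cdca7, the difference was -0.44 ± 0.25 and -0.15 ± 0.17 and did not pass the test.

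Between P5 and P14, most replication genes fell at either oxygen level and with either antimiR. In 21% O2 with scrambled antimiR, 41 of 42 members were lower at P14, with a median of -1.21, where 23.6% of 17880 genes were lower and the median of all was 0.039. In 85% O2 with scrambled antimiR, 39 of 42 fell, with a median of -0.67, against 19.2% of all genes. With antimiR-34a, 40 of 42 fell in 21% O2 (median -1.07, 28.9% of all genes) and 33 of 42 in 85% O2 (median -0.56, 15.5% of all genes). The 41, 39 and 40 include Brca1, which entered only through the P5 21% O2 scrambled group. Over the 41 members above background on all arrays, 40 and 38 fell with scrambled antimiR in 21% and 85% O2, and 39 and 33 with antimiR-34a. The 33 in 85% O2 with antimiR-34a depended on the fit, with 5 by the methods' t-test, 21 when the compared groups alone were fitted and 26 without replicate 2 of the P14 group. No member rose in these 4 comparisons. In 21% O2 with scrambled antimiR, the falls of members above background at both ages were largest for Uhrf1 (-2.46 ± 0.18) and Exo1 (-2.15 ± 0.21). Brca1, above background in 4 of 4 P5 lungs and 0 of 4 P14 lungs, was at least 1.92-fold lower and is not ranked. Tk1 fell by 2.05, Ccne1 by 2.06, Mcm10 by 2.04 and Rrm2 by 1.92 on the log2 scale. The second Ccne1 feature fell by 0.763. Gins3 alone did not pass the test there, with a difference of 0.16 ± 0.10 (adjusted p = 0.2).

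In 85% O2, the fall with age was led by Exo1 (-1.87 ± 0.21), Cdca7 (-1.36 ± 0.12) and Mcm5 (-1.29 ± 0.27) with scrambled antimiR. Without replicate 1 of the P14 group, the fall of Mcm5 was -0.859, smaller than that of Pole in the full fit (-1.04). The rank of Mcm5 therefore rests on that pup. E2f1 did not pass the test in 85% O2, with differences of 0.092 ± 0.083 and -0.037 ± 0.083, whereas in 21% O2 it fell, with log2 changes of -1.25 ± 0.083 and -1.33 ± 0.083. The E2f1 levels of the 85% O2 lungs overlapped between the ages, with a P5 range of 0.81 to 1.01 and a P14 range of 0.94 to 1.11 in scrambled antimiR mice. Gins3 (-0.012 ± 0.10) and Tyms (-0.24 ± 0.12) likewise did not pass the test with scrambled antimiR. No fold is given for Brca1, since no P14 lung and only 2 of 4 P5 lungs were above background there. Mitosis genes fell with age in 24 of 24 cases in 21% O2 (median -1.85), led by Cdk1 (-2.17 ± 0.21), Ccnb1 (-2.05 ± 0.17) and Plk1 (-2.05 ± 0.18). Of the 45 other replication factors, 37 fell and 0 rose there, with Cdc7 (-2.42 ± 0.20), Ticrr (-2.31 ± 0.18) and Orc1 (-2.08 ± 0.24) in front. Among the G1/S control genes, E2f8, Ccna2 and E2f7 fell most and Cdk6 (1.16 ± 0.12), Rb1 and Cdkn2c rose. The mean level of the whole list went from 0.16 at P5 to -0.18 at P14 in 21% O2 with scrambled antimiR. Red blood cell markers also fell with age, in 3 of 7 cases in 21% O2 and 5 of 7 in 85% O2. With scrambled antimiR, 23.6% and 19.2% of all genes fell at these oxygen levels. In 85% O2 with scrambled antimiR, mean macrophage level ranged from -0.086 to 0.44 at P5 and 0.53 to 1.11 at P14. Lung fibroblast level ranged from -0.66 to -0.42 and -0.16 to -0.10, and type I pneumocyte level from -0.042 to 0.038 and 0.305 to 0.397. In 21% O2 with scrambled antimiR, all 7 tested adipocyte markers, all 8 B cell markers, 6 of 8 thymus markers and 6 of 8 type I pneumocyte markers rose with age. Of all genes, 29.1% rose there. Mean adipocyte level went from -0.45 at P5 to 3.20 at P14, thymus level from -0.43 to 0.93, B cell level from -0.13 to 0.87 and type I pneumocyte level from -0.44 to 0.13. Lung fibroblast level went from 0.034 to 0.556, macrophage level from -0.61 to -0.252 and lung endothelium level from -0.202 to 0.132. The part of these shifts in the changes of the replication genes was not tested.

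**Figure D4:**
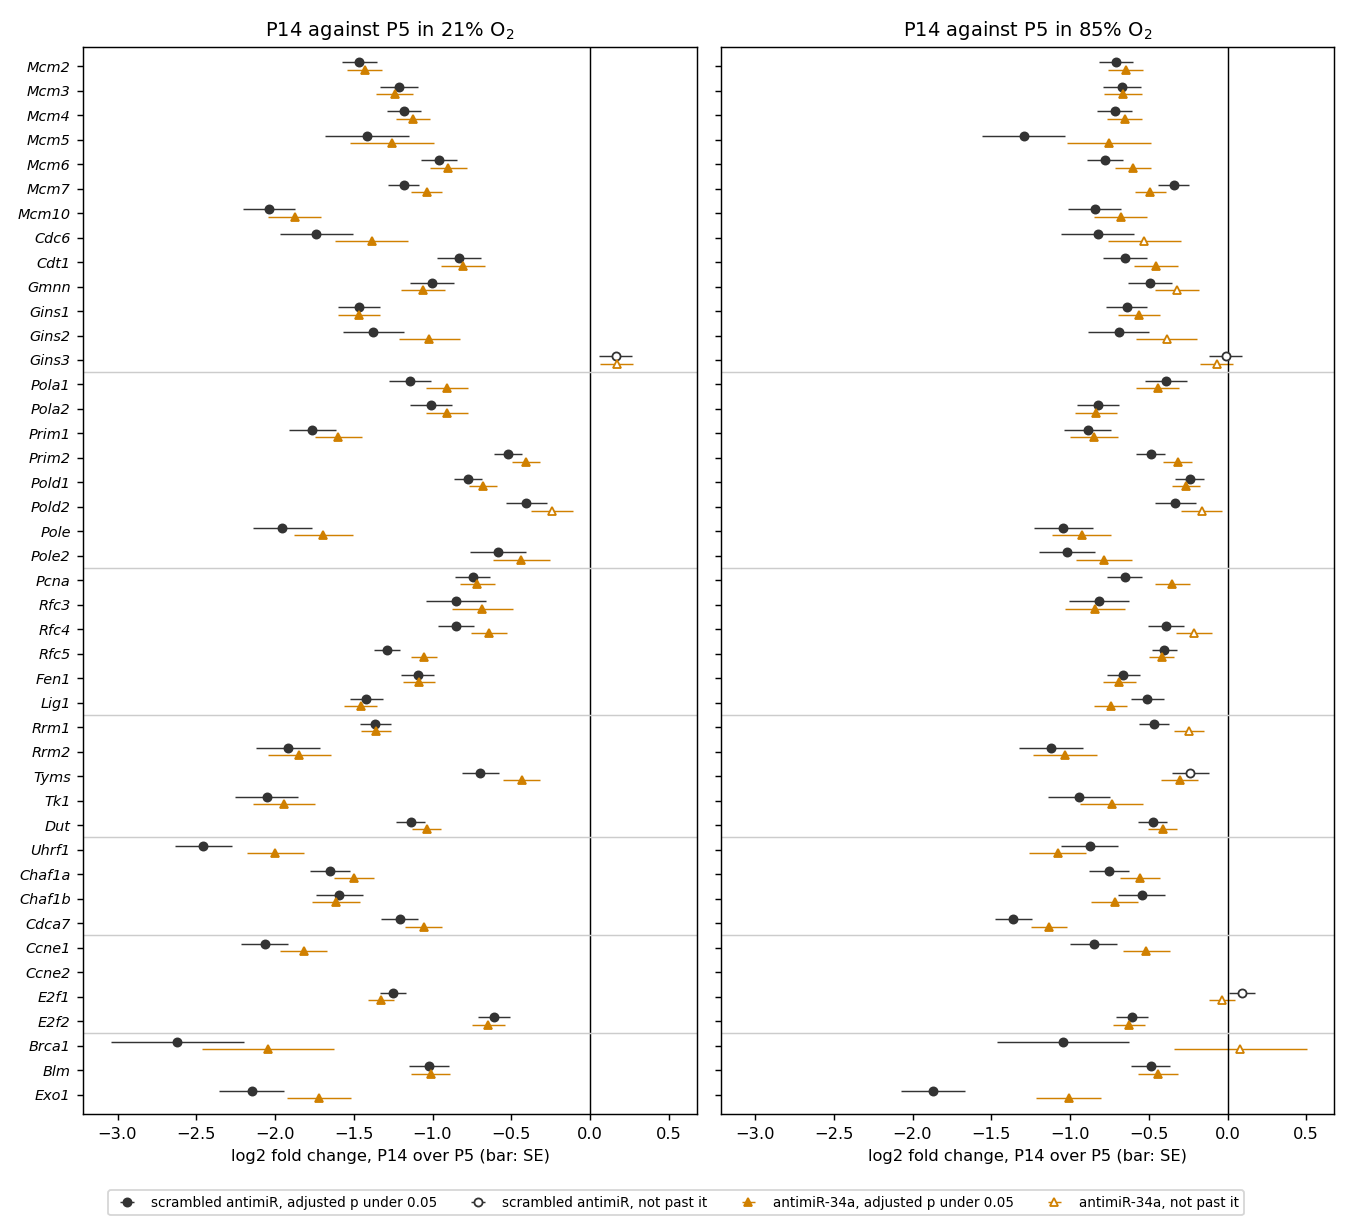
Log2 fold change of P14 over P5 for each tested member in 21% O2 (left) and 85% O2 (right), with bars of 1 SE, black circles for scrambled antimiR and orange triangles for antimiR-34a, filled where the adjusted p was under 0.05. The Brca1 points rest on P14 signals below the background limit. No filled point lies above 0, and the median shifts from -1.21 in 21% O2 to -0.67 in 85% O2 with scrambled antimiR.

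The antimiR directed against miR-34a binds the mature microRNA mmu-miR-34a-5p, encoded on chromosome 4 (chr4:150068473-150068494, plus strand, GRCm38.p6) and shown with its seed (bases 2 to 8) in capitals:
mmu-miR-34a-5p: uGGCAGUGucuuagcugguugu
No replication gene passed the test for antimiR-34a against scrambled antimiR in any of the 4 settings. At P5 in 21% O2, limma called 0 of 42 members, 8 had an unadjusted p under 0.05 (16.3% of all genes), the methods' t-test called 0, and 0.106% of all genes were called in either direction. Over the 41 members above background on all arrays, 38 differences lay below 0 there, with a median of -0.129, where the median of all genes was -0.0035, and groups did not overlap for 8 of them (Mcm5, Gins2, Pold1, Pold2, Pole, Rfc4, Rfc5 and Ccne1), where 6.59% of all genes were separated lower. These 8 were named after their values were seen. The 38 differences were measured in the same pups and are not separate observations. Mean marker levels in these groups were 0.034 with scrambled antimiR and -0.18 with antimiR-34a for lung fibroblast, -0.45 and -1.04 for adipocyte, 1.22 and -0.16 for skeletal muscle, and -0.44 and -0.30 for type I pneumocyte markers. None of these markers passed the test, and their part in the members' differences was not tested. At P5 in 85% O2, 0 of 42 were called (3 at an unadjusted p under 0.05, against 13.8% of all genes, and 0 by the methods' t-test, with 0.124% of all genes called), with a median of -0.11. At P14, 0 of 41 were called in 21% O2 (0 unadjusted, against 8.52% of all genes, and 0 by the t-test, with 0% of all genes called) and 0 of 41 in 85% O2 (2 unadjusted, against 15.4%, and 0 by the t-test, with 2.23% called), with medians of -0.022 and 0.0028. No member passed the test for a difference of the oxygen effect between the antimiRs at P5 (0 called, 3 unadjusted, against 0.0648% and 1945 of 16971 genes) or P14 (0 called, 0 unadjusted, against 0.0509% and 2276 of 17673 genes). A p that misses the threshold does not show that the antimiRs acted alike. For Mcm2, the difference in 21% O2 at P5 was -0.058 ± 0.072, for Cdc6 -0.20 ± 0.098, for Ccne1 -0.26 ± 0.097 and for E2f1 -0.023 ± 0.066.

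In several groups, the same pup was highest or lowest for most members. In the P14 85% O2 antimiR-34a group, replicate 2 was the lowest of the 4 pups for 35 of the 43 members. In the P14 21% O2 antimiR-34a group, replicate 1 was the highest for 32 and replicate 4 the lowest for 36. In the P14 85% O2 scrambled group, replicate 1 was highest for 31 and replicate 4 lowest for 31. At P5 in 85% O2 with antimiR-34a, replicate 2 was highest for 36 and replicate 3 lowest for 31. In contrast, no pup of the P5 85% O2 scrambled group was highest for more than 14. The replicate 1 pup of the P14 21% O2 antimiR-34a group also had the highest thymus level, and the part of thymus RNA in its replication level was not tested. Replicate 3 of the P5 85% O2 antimiR-34a group had the dimmest array, with a 75th percentile of 9.01.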

How the data were processed

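Total RNA of whole, PBS-perfused lungs was hybridised to one-colour (Cy3) Agilent mouse arrays, 1 array per mouse. Per the file headers, the authors extracted spot intensity with Agilent Feature Extraction (version 10.7.3.1, submitters' processing notes), which subtracts background within each array. The deposited table of log2 values correlated with the scanner intensity (r from 0.9974 to 0.9999), and its sorted columns differed by at most 0.00152, as after quantile normalization. How its scale was set is not given in the sources used here. The labels and the study's methods name different RNA kits.

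From the deposited intensity, the log2 processed signal minus the 75th percentile of each array was taken, outlier spots (0.211%) were left out, and repeated spots were averaged. Probes entered a fit when 1 or more groups had them well above background in each of its 4 mice (35982 probes at P5, 38455 at P14, 39162 in the fit of both ages). Limma 3.58.1 (R 4.3.3, with the data.table package, version 1.17.8) fitted all groups of an age, or all 8 groups for age, with Benjamini-Hochberg adjustment over all probes at 0.05. A gene was read on its brightest probe. Where a group was not above background, the fold is a bound, with the dim group set at the lowest signal above background on each array or the probe's own signal if higher. The number of arrays limits the precision. Values by mouse were given for a fixed set of 27 members, and further for up to 3 called members with the largest change per comparison, for each called member against the majority, and by the same rule for related lists. The members and lists were chosen with earlier results of these data known. Results were also computed with another background correction, with quantile normalization, from the deposited log2 values, with no or a stricter filter, on the compared groups alone, by the t-test of the study's methods, with replicate or slide as a block, on the mean of a gene's probes and without each pup in turn. Promoter and microRNA sequences came from RefSeq (GRCm38.p6). The statistics were tested on simulated data, and figures were drawn with Python 3.11.15 and matplotlib 3.10.9.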

Additional observations from a re-analysis of the deposited data

Results flagged for a closer look

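In 15 of the 224 groups of 4 mice checked, 1 mouse lay apart from the other 3 for a named member, where chance gives about 1 in 20. Replicate 2 of the P14 85% O2 antimiR-34a group was low for Mcm6 (3.49), Gmnn (-1.61), Pola1 (-1.19), Pole2 (-2.54), Ccne1 (0.123) and Exo1 (-2.02). In the P14 85% O2 scrambled group, replicate 1 was low for Mcm5 (-0.798, the others 0.803 to 1.07) and high for Tyms (-2.36), and replicate 4 was low for Exo1 (-2.35). At P5 in 21% O2, replicate 4 of the antimiR-34a group was low for Mcm2 (1.77) and replicate 2 for Cdt1 (2.47), and replicate 4 of the scrambled group was low for Mcm10 (1.21). Under the background limit, replicate 4 of the P14 21% O2 scrambled group was high for Ccne2 (-7.96), replicate 1 of the P14 21% O2 antimiR-34a group high for Brca1 (-6.61), and replicate 2 of the P5 85% O2 scrambled group low for Brca1 (-7).

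The oxygen effect differed between P14 and P5 for 29 members with scrambled antimiR and for 26 with antimiR-34a (limma interaction terms). Without Brca1, which entered only through a group where it was high, the counts were 28 and 25. On the log2 scale, the differences were 1.58 for Uhrf1 and 1.34 for E2f1 with scrambled antimiR, and 1.3 for Ccne1 and 1.29 for E2f1 with antimiR-34a. The second Uhrf1 feature did not pass the test with scrambled antimiR, and the second Ccne1 feature passed it in the opposite direction with antimiR-34a (-0.955, adjusted p = 0.022). The fitted terms of Brca1, 1.57 and 2.13, rest on P14 signals below the background limit in all lungs, so neither a size nor a rank can be read from them.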

How the results depend on the processing

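The methods' t-test called 7 members for oxygen at P14 with antimiR-34a (3 higher, 4 lower, against 11 by limma) and 5 with age in 85% O2 with antimiR-34a (against 33). Fitting only the compared groups gave 21 for the latter. Quantile normalization split the P14 oxygen calls into 3 higher and 6 lower with scrambled antimiR and 8 and 7 with antimiR-34a, as did the deposited log2 values. Brca1 in the age comparison in 85% O2 with scrambled antimiR turned to 0.141 (adjusted p = 0.434) under normexp background correction, and Ccne1 in the P14 oxygen comparison with antimiR-34a to -0.543 (adjusted p = 0.0105) as the mean of its probes. The cause was not tested. The other counts under these settings stayed within 1.5 times. Medians of the members moved by less than the spread between mice, but that for antimiR-34a at P14 in 85% O2 changed sign on the mean of probes, from 0.00279 to -0.00714.

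With 1 pup left out, counts for oxygen were 35 to 36 (scrambled antimiR) and 34 to 36 (antimiR-34a) at P5, and 8 to 14 and 9 to 14 at P14. The 8 came without replicate 1 of the P14 21% O2 scrambled group. In 21% O2, counts with age were 41 to 41 (scrambled antimiR) and 39 to 40 (antimiR-34a). In 85% O2, they ranged from 35 to 40 with scrambled antimiR and from 26 to 36 with antimiR-34a. For the difference of the oxygen effect between ages they were 23 to 29 and 21 to 31. For antimiR-34a they were 0 to 0, except 0 to 1 at P14 in 85% O2, the 1 without replicate 2 of the antimiR-34a group. Medians near 0 changed sign. For oxygen at P14 they ran from -0.0364 to 0.0852 with scrambled antimiR and from -0.0519 to 0.179 with antimiR-34a. For antimiR-34a at P14 they ran from -0.0944 to 0.0581 in 21% O2 and from -0.0717 to 0.0906 in 85% O2. For the difference of the oxygen effect between the antimiRs the P5 range was -0.0404 to 0.112 and the P14 range -0.0633 to 0.138. The other medians kept their sign.

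Replicate numbers did not pair the mice, with correlations of same-numbered mice from -0.354 to 0.499. With the replicate number as a block, counts were 35 and 35 for oxygen at P5, 14 and 13 at P14, 41, 40, 38 and 35 with age, and 29 and 27 for the difference between ages, with 0 for antimiR-34a. Slide as a block could be fitted only for antimiR-34a and also gave 0. Fits of the compared groups alone for the antimiR interactions equal the full fit and were not run separately. Signal near background limits Brca1 and Ccne2.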
